A study of Homo sapiens with 2 samples.

Results

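Aminoacyl-tRNA synthetases are the enzymes that attach each amino acid to its transfer RNA, so they supply every substrate of translation. Human cells keep a cytosolic set and a mitochondrial set, almost all encoded by separate nuclear genes, and the symbols give the amino acid by its letter code, with a trailing 2 for the mitochondrial enzyme. Several cytosolic genes are textbook targets of ATF4, the transcription factor that raises amino acid supply when charging falls or the endoplasmic reticulum is stressed. A list of 36 synthetase genes was examined, 20 cytosolic and 16 mitochondrial, defined by gene name. Probes whose annotation named exactly 1 gene represented 35 of the 36, with 40 probes among 31741 on the array, and DARS, the cytosolic aspartate enzyme, was not analysed here.

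The data came from SAS, an established human cell line of tongue squamous carcinoma, measured on 1-colour Cy5 arrays. The shATMIN cells were labelled for plasmids with a short hairpin RNA against ATMIN, and the neo cells were the control. Both samples carry the same treatment text, by which transfected cells were moved at 24 h to medium with 10% serum and puromycin at 3 ug/mL and resistant clones were grown. The sources used here do not state the construct of the neo cells or the number of clones in either sample. ATMIN encodes the ATM interactor, and the study asked whether lowering it alters how the cancer progresses. Each group held 1 sample, with 2 arrays listed in the labels, so no test was possible, differences have no replicate check, and the number of arrays limits the precision.

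The targeted gene ATMIN had an intensity of 61.5 in shATMIN cells and 105 in neo cells, a difference of -0.76 on the log2 scale, and its second probe (26.5 in shATMIN cells and 51.5 in neo cells) was below the level required for comparison. Among markers of squamous epithelium 9 of 9 were above the level required for comparison. On their brightest probes 5 of these 9 were lower in shATMIN cells, from TP63 at -1.19 to KRT6A at 1.00. Dimmer probes differed for some, with TP63 at -0.06 and DSG3 at -0.20 where its brightest gave 0.03. EGFR gave -0.34 on its brightest probe and 0.87 and 0.57 on dimmer ones. The basal keratin KRT5 read 16170 in shATMIN cells and 13322 in neo cells. Also above that level were 2 of 4 leukocyte, 3 of 4 endothelial and 1 of 4 fibroblast markers, against 12421 of 18336 genes with values. The endothelial markers that passed were dim. The brightest, VWF, read 164 in shATMIN cells and 184 in neo cells, where the level required was an intensity of about 58.9. The leukocyte marker CD14 read 2602 in shATMIN cells and 2858 in neo cells, and CD68 read 174 in shATMIN cells and 272 in neo cells. The fibroblast marker above the level required for comparison was COL1A1, at 423 in shATMIN cells and 459 in neo cells. The pan-leukocyte marker PTPRC (14.0 in shATMIN cells and 13.5 in neo cells) and the fibroblast marker DCN (18.0 in shATMIN cells and 18.5 in neo cells) were below that level. Over 12421 compared genes the median difference, shATMIN minus neo, was -0.16 and 70.7% of genes were lower in shATMIN cells. Each synthetase difference below is therefore read against that shift. All 35 measured synthetase genes were bright enough to be compared, meaning a mean log2 level of at least 5.90, so none was lost to the filter. In bulk RNA, fewer cells that express a gene and less of its RNA per cell cannot be told apart.

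As a family the synthetase genes lay close to that shift. Of 35 compared members, 30 were lower and 5 higher in shATMIN cells (85.7% lower, against 70.7% of all compared genes), with a median difference of -0.23 on the log2(intensity + 1) scale. No member reached a 2-fold difference in either direction, where 1.34% of all genes were at least 2-fold lower and 0.459% at least 2-fold higher. At 1.5-fold, 4 of 35 members were lower (11.4%, against 12.2% of all genes), namely VARS, MARS2, FARSA and IARS2, and none was higher, against 1.9% of all genes. The share of members past either size was near the background. The plot of intensities by gene gives both samples for every member.

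**Figure D1:**
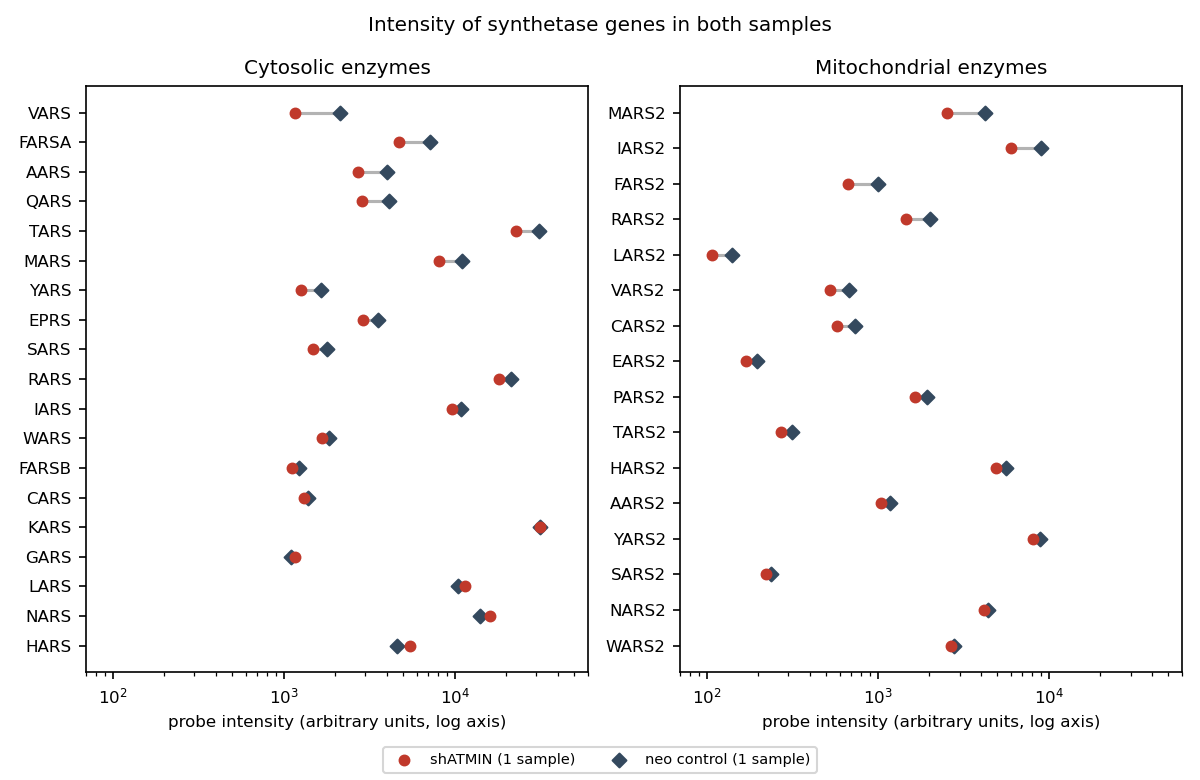
Probe intensity (arbitrary units, log axis) of 19 cytosolic and 16 mitochondrial synthetase genes, with a circle for the shATMIN sample and a diamond for the neo sample, ordered by difference. VARS at the top left has the widest gap (1168 against 2123) and KARS shows overlapping symbols.

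The cytosolic enzymes spread more widely than the mitochondrial ones. VARS, which charges valine and binds elongation factor 1, had an intensity of 1168 in shATMIN cells and 2123 in neo cells, a difference of -0.86. Only 3.0% of all compared genes were lower by more. FARSA, the catalytic alpha subunit of the phenylalanine enzyme, read 4722 in shATMIN cells and 7180 in neo cells, a difference of -0.60. FARSB, the beta subunit of the same tetramer, read 1111 in shATMIN cells and 1224 in neo cells, a difference of -0.14, close to the median of all genes. The subunits of this enzyme thus gave unequal differences, measured on 1 probe each.

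Next came AARS, the alanine enzyme, with 2727 in shATMIN cells and 3993 in neo cells, a difference of -0.55. QARS, the glutamine enzyme, read 2879 in shATMIN cells and 4124 in neo cells, a difference of -0.52. These differences and those of VARS and FARSA lay below the middle 50% of all compared genes, which spanned -0.39 to 0.04. TARS, the threonine enzyme, read 22845 in shATMIN cells and 31180 in neo cells, a difference of -0.45. Its second probe read 10011 in shATMIN cells and 10062 in neo cells, a difference of -0.01, so the lower TARS value rests on 1 probe. MARS, which charges methionine for initiation and elongation, read 8067 in shATMIN cells and 10969 in neo cells, a difference of -0.44, and its second probe gave -0.27. YARS, the tyrosine enzyme, read 1263 in shATMIN cells and 1661 in neo cells, a difference of -0.39. On their brightest probes TARS and MARS also lay below the middle 50% of all compared genes, and YARS lay at its lower edge.

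A middle group stayed near the shift of all genes. EPRS, a fused enzyme that charges both glutamate and proline, read 2924 in shATMIN cells and 3558 in neo cells, a difference of -0.28. SARS, for serine, read 1487 in shATMIN cells and 1789 in neo cells, a difference of -0.27. RARS, for arginine, read 18117 in shATMIN cells and 21339 in neo cells, a difference of -0.24, with -0.22 on its second probe. The RARS probes gave almost the same difference. IARS, for isoleucine, read 9694 in shATMIN cells and 10882 in neo cells, a difference of -0.17. WARS, the tryptophan enzyme, which is also induced by interferon gamma, read 1673 in shATMIN cells and 1850 in neo cells, a difference of -0.14, and its second probe gave 0.07. The sign for WARS therefore differed between its probes. CARS, for cysteine, read 1317 in shATMIN cells and 1387 in neo cells, a difference of -0.07.

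The 5 members that were not lower in shATMIN cells were all cytosolic. The other 14 of 19 compared cytosolic members were lower, a share of 73.7%, near the 70.7% of all compared genes. HARS, the histidine enzyme and an autoantigen in myositis, read 5458 in shATMIN cells and 4581 in neo cells, a difference of 0.25, and 91.9% of all compared genes were lower than that. NARS, for asparagine, read 16005 in shATMIN cells and 14021 in neo cells, a difference of 0.19. LARS, for leucine, which also acts as a leucine sensor for mTORC1, read 11492 in shATMIN cells and 10465 in neo cells, a difference of 0.14. The SD between probes of the same gene was 0.34 over 2973 genes with several compared probes. As deposited these 3 differences were smaller than that, as were those of the middle group from EPRS to CARS, while under other scalings HARS reached 0.49, NARS 0.42 and LARS 0.37. GARS and KARS, for glycine and lysine, are the genes whose transcripts encode both the cytosolic and the mitochondrial enzyme. GARS read 1168 in shATMIN cells and 1100 in neo cells, a difference of 0.09, and KARS read 31576 in shATMIN cells and 31575 in neo cells. The KARS values were equal to within 2 intensity units and lay below the top of the scanner range.

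**Figure D2:**
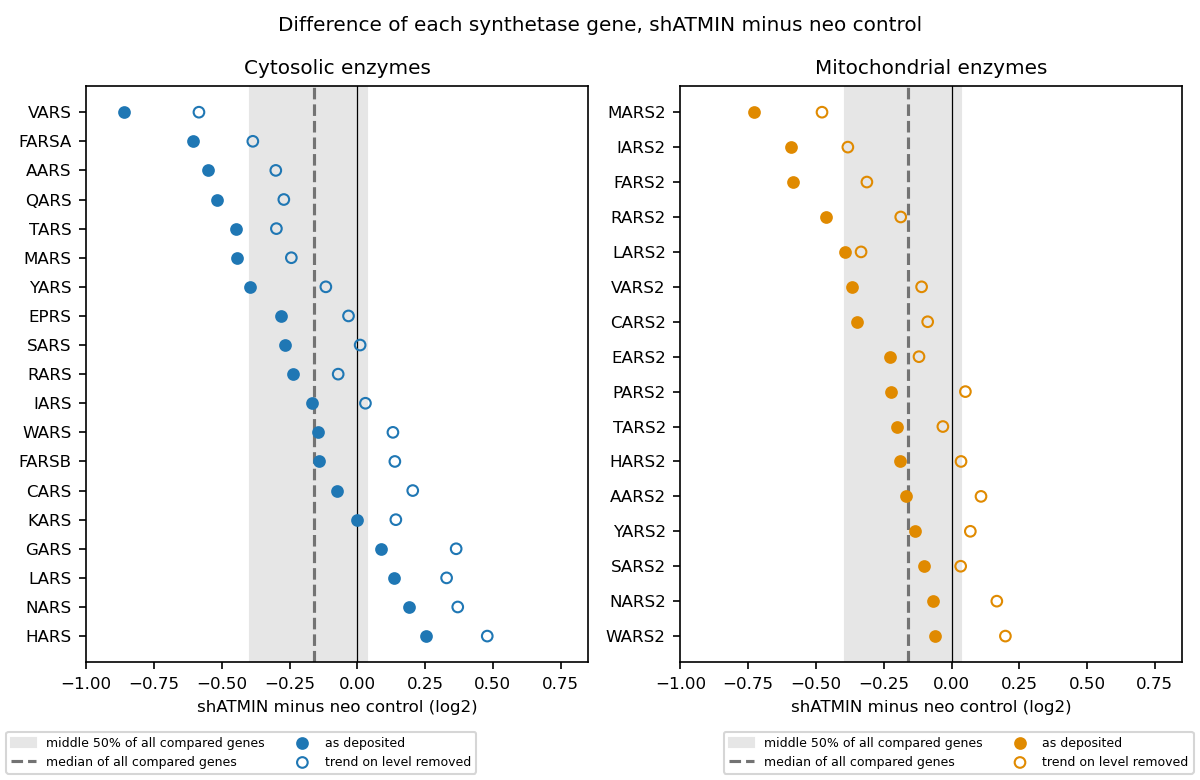
Difference between samples (shATMIN minus neo, log2) for each cytosolic and mitochondrial gene, as deposited (filled circles) and after removal of the trend on level (open circles); the dashed line is the median of all compared genes at -0.16 and the grey band their middle 50%. All 16 mitochondrial filled circles lie left of 0, and HARS, NARS, LARS and GARS lie right of it.

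The mitochondrial enzymes charge the tRNAs used for the few proteins encoded in mitochondrial DNA, which are parts of the respiratory chain or of ATP synthase. All 16 were lower in shATMIN cells as deposited, from -0.73 to -0.06, against 70.7% of all compared genes. MARS2, the methionine enzyme, read 2552 in shATMIN cells and 4225 in neo cells, a difference of -0.73, and 6.35% of all genes were lower by more. IARS2, for isoleucine, read 5992 in shATMIN cells and 9029 in neo cells, a difference of -0.59. FARS2, the single-chain phenylalanine enzyme of mitochondria, read 666 in shATMIN cells and 999 in neo cells, a difference of -0.58. It stood just outside the 1.5-fold rule, at 1.499-fold, where IARS2 at 1.507-fold stood just inside. RARS2, for arginine, read 1460 in shATMIN cells and 2015 in neo cells, a difference of -0.46.

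LARS2, for leucine, was the dimmest member, at 106 in shATMIN cells and 140 in neo cells, a difference of -0.39. VARS2, for valine, read 527 in shATMIN cells and 681 in neo cells, a difference of -0.37. CARS2, for cysteine, read 579 in shATMIN cells and 739 in neo cells, a difference of -0.35. The remaining 9 mitochondrial members lay between -0.23 and -0.06, around the shift of all genes and within the SD between probes of a gene. EARS2, which charges glutamate and also places it on the glutamine tRNA of mitochondria, read 169 in shATMIN cells and 198 in neo cells, and PARS2, for proline, read 1652 in shATMIN cells and 1931 in neo cells. TARS2, for threonine, read 272 in shATMIN cells and 313 in neo cells, and HARS2, for histidine, read 4935 in shATMIN cells and 5625 in neo cells. The differences were -0.23 for EARS2, -0.22 for PARS2, -0.20 for TARS2 and -0.19 for HARS2.

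AARS2, for alanine, read 1045 in shATMIN cells and 1175 in neo cells, a difference of -0.17. YARS2, for tyrosine, read 8087 in shATMIN cells and 8877 in neo cells, a difference of -0.13. SARS2, for serine, read 222 in shATMIN cells and 238 in neo cells, a difference of -0.10. The smallest differences belonged to the asparagine and tryptophan enzymes. NARS2 read 4183 in shATMIN cells and 4386 in neo cells, a difference of -0.07. WARS2 read 2675 in shATMIN cells and 2789 in neo cells, a difference of -0.06, and its second probe gave -0.18.

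The compartments did not separate by their medians. The median was -0.24 over 19 cytosolic members and -0.23 over 16 mitochondrial members, a cytosolic minus mitochondrial difference of -0.01. The SD over genes was 0.30 among cytosolic and 0.20 among mitochondrial members, both narrower than the 0.38 of all compared genes. Both were also below the SD of 0.34 between probes of the same gene, and the difference in spread was not tested. Measured against the median of all genes instead of 0, 11 of 19 cytosolic and 12 of 16 mitochondrial members were below it, where 50% of all genes are by construction. Without GARS and KARS the cytosolic median was -0.27. Members of a compartment share the same 2 samples and are not replicates, so no test was made between compartments.

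Setting the cytosolic beside the mitochondrial enzyme for the same amino acid gave no common pattern. Of 17 such pairs (EPRS entered against EARS2 and PARS2, and FARSA and FARSB both against FARS2), the mitochondrial difference was the lower one in 8 and the higher one in 9. Methionine had both enzymes low, with MARS2 at -0.73 and MARS at -0.44. Valine did too, with VARS2 at -0.37 and VARS at -0.86. Leucine was split, with LARS2 at -0.39 and LARS at 0.14, and its enzymes kept these opposite signs under each scaling described below. Histidine and asparagine were split as deposited, with HARS2 at -0.19 and HARS at 0.25, and NARS2 at -0.07 and NARS at 0.19. For these amino acids the split did not hold with the trend on level removed, where HARS2 stood at 0.035 and NARS2 at 0.17, above 0 like their cytosolic counterparts.

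The overall shift depended on level, which matters for a family that spans dim and bright probes. The loess trend of the difference on level was -0.06 at the level of LARS2, -0.28 at the level of VARS and -0.14 at the level of KARS. With that trend removed, 18 of 35 members were lower and 17 higher (51.4% lower, against 48.5% of all genes), the cytosolic median was 0.01 and the mitochondrial median -0.06, and 9 of 16 mitochondrial members were lower. The 16 of 16 count thus did not hold once the samples were put on a common level. After scaling both samples to a common 75th percentile, 7 of 16 mitochondrial and 10 of 19 cytosolic members were lower, against 41.2% of all genes.

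**Figure D3:**
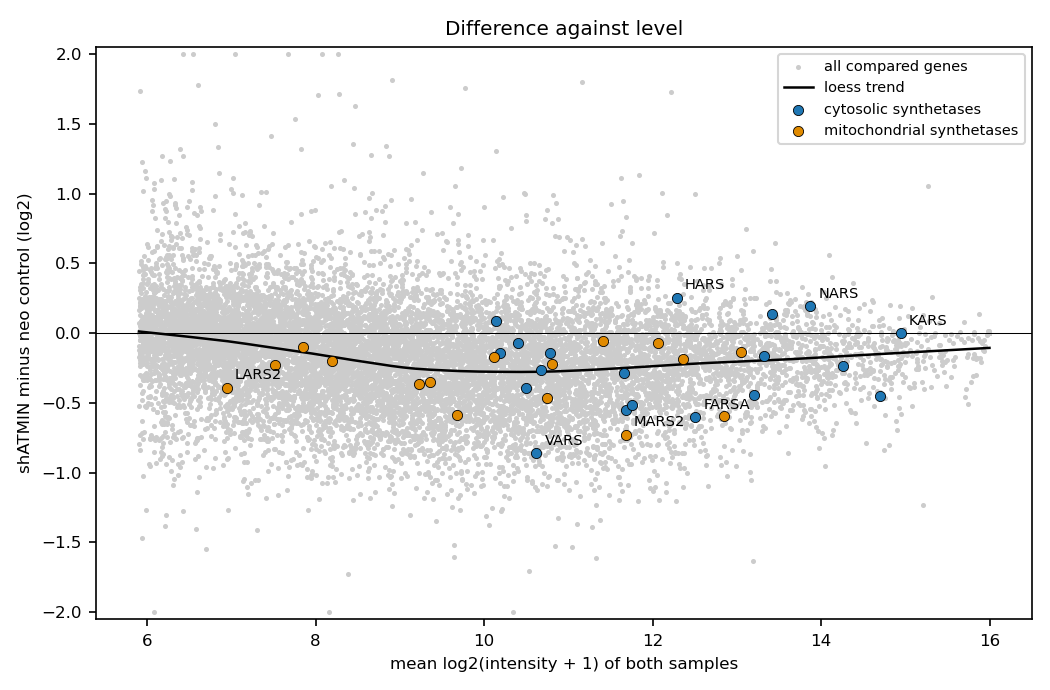
Difference (shATMIN minus neo, log2) against mean log2(intensity + 1) for all 12421 compared genes (grey, values beyond 2 drawn at the edge), with the loess trend as a line, cytosolic synthetases in blue and mitochondrial synthetases in orange. Members lie on both sides of the trend, with VARS and MARS2 below it and HARS and NARS above it.

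Single members were sorted by whether their direction was the same as deposited, scaled to the 75th percentile, quantile normalized and with the trend removed. In all of these, 16 of 35 members were lower in shATMIN cells, against 39.7% of all genes, and 5 were higher, against 29.2%. The 9 cytosolic members always lower were VARS, FARSA, AARS, QARS, TARS, MARS, YARS, EPRS and RARS, and the 7 mitochondrial ones were MARS2, IARS2, FARS2, RARS2, LARS2, VARS2 and CARS2. Of these, RARS came as near 0 as -0.0025 and EPRS as -0.031. The sorting used the brightest probe, and the second TARS probe stood at -0.01 as deposited. Over these scalings VARS ranged from -0.86 to -0.58, MARS2 from -0.73 to -0.48, IARS2 from -0.59 to -0.36 and FARSA from -0.60 to -0.37. The 5 always higher were HARS (0.25 to 0.49), NARS (0.19 to 0.42), LARS (0.14 to 0.37), GARS (0.09 to 0.36) and KARS (5.53e-05 to 0.23), which was level as deposited. The other 14 members took either sign, so their direction as deposited depends on the scaling.

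For probes under an intensity of about 1000 the deposited value could be resolved into a pair of underlying readings, which gives a measure of technical spread. The sources used here do not say whether the pair corresponds to the 2 listed arrays. The pair was recovered in both samples for 9 synthetase probes. FARS2 had readings of 662 and 671 in shATMIN cells, against 997 and 1002 in neo cells. LARS2 had 106.2 and 106.8 in shATMIN cells, against 140.3 and 139.7 in neo cells. In both genes the gap between samples was far wider than that within a pair.

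VARS2 had readings of 516 and 539 in shATMIN cells, against 662 and 699 in neo cells, and CARS2 had 566 and 593 in shATMIN cells, against 784 and 694 in neo cells. These pairs did not overlap either. SARS2, in contrast, had 214 and 230 in shATMIN cells, against 220.5 and 256 in neo cells, and the second WARS probe had 1022 and 916 in shATMIN cells, against 979 and 871 in neo cells, and both overlapped. In 7 of the 9 probes both shATMIN readings were lower than both neo readings, against 48.7% of all compared probes with resolved pairs. In none were both higher, against 21.7%. The readings were not scaled between samples, so the shift of all genes enters these counts. Among the 7 were probes of EARS2, TARS2 and WARS2, genes whose brightest probe took either sign over the scalings. The spread within a pair says nothing about separate cultures or clones.

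**Figure D4:**
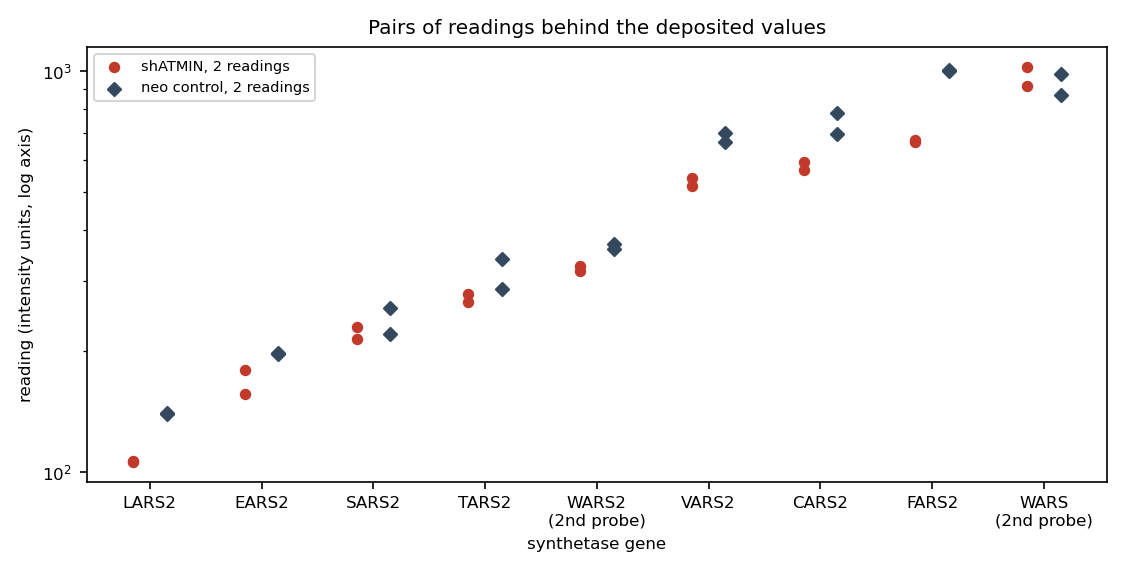
The recovered pair of readings (intensity units, log axis) in shATMIN cells (circles) and neo cells (diamonds) for 9 synthetase probes under an intensity of about 1000, ordered by level. The pairs of FARS2, LARS2, VARS2 and CARS2 are apart, and those of SARS2 and the second WARS probe overlap.

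Synthetases fall into class I and class II by the fold of their catalytic domain, and the folds are unrelated. Of the cytosolic members, 8 of 9 in class I were lower in shATMIN cells, with a median of -0.24, and 5 of 9 in class II, with a median of -0.14, against 70.7% of all genes. HARS, NARS, GARS and KARS, all of class II, made up that class's higher members, and LARS was the higher one in class I. Among mitochondrial members the median was -0.37 for 9 class I genes and -0.19 for 7 class II genes, and with the trend removed 7 of 9 and 2 of 7 were lower, against 48.5% of all genes. With the trend removed 5 of 9 cytosolic class I and 3 of 9 cytosolic class II members were lower. EPRS holds a domain of each class and was left out of this grouping.

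In the cytosol several synthetases assemble with 3 scaffold proteins into the multisynthetase complex. Its 7 compared synthetase members (EPRS, IARS, LARS, MARS, QARS, RARS and KARS) had a median of -0.24, and the 12 cytosolic synthetases outside it a median of -0.21. The scaffold genes gave smaller differences. AIMP2 read 13867 in shATMIN cells and 13999 in neo cells, EEF1E1 read 10061 in shATMIN cells and 10944 in neo cells, and AIMP1 read 1294 in shATMIN cells and 1509 in neo cells, for differences of -0.01, -0.12 and -0.22. A second AIMP1 probe gave -0.79, so that gene is uncertain. Once the trend on level was removed, none of these 3 brightest scaffold probes was lower.

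The wider set of charging genes held the scaffolds, elongation factors, proofreading enzymes and tRNA maturation and export genes. Of 26 compared genes 21 were lower (80.8%, against 70.7% of all genes), with a median of -0.14, and none was past 2-fold. With the trend removed the count was 8 of 26 (30.8%, against 48.5% of all genes), and after scaling to the 75th percentile 10 of 26, against 41.2%, so the side of the background depended on the scaling. GATB and GATC encode subunits of the amidotransferase that makes glutaminyl-tRNA in mitochondria. GATB read 267 in shATMIN cells and 405 in neo cells, a difference of -0.60, and GATC read 1390 in shATMIN cells and 1068 in neo cells, a difference of 0.38, so these partners had opposite signs as deposited, after scaling to the 75th percentile and with the trend removed. QRSL1, the catalytic subunit of the same enzyme, stood at -0.39. EEF1A2, a tissue-restricted form of the factor that carries charged tRNA to the ribosome, stood at -0.48, and EEF1D, a subunit of the exchange factor that VARS binds, at -0.39. XPOT, the tRNA export receptor, gave 0.23 on one probe and -0.56 on another.

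The cytosolic synthetase genes usually counted among ATF4 targets were set beside the other cytosolic members. The 12 in that group (AARS, CARS, EPRS, GARS, IARS, LARS, MARS, NARS, SARS, TARS, WARS and YARS) had a median of -0.22 with 9 lower, and the 7 others a median of -0.24 with 5 lower. Both counts were close to the share of all compared genes that were lower, 70.7%. The lowest cytosolic members, VARS and FARSA, lay outside the ATF4 group. AARS, TARS and MARS were its lowest members, and GARS, LARS and NARS its higher ones.

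ATF4 acts through the C/EBP-ATF element, and promoter windows of 250 bases before to 50 after annotated starts were searched for TGATGNAA on both strands. RefSeq windows (GRCh38.p14) were matched for 30 of the 36 genes, and none was matched for LARS, VARS, YARS, DARS, AARS2 and VARS2. The element was found in 7 of 16 cytosolic and 1 of 14 mitochondrial genes, against 4.46% of 27305 genes with a window. The windows are shown because the element was found in a larger share of cytosolic synthetase genes (43.8%) than of all genes with a window. Capitals mark the element, which reads TTNCATCA when it lies on the opposite strand, and each sequence runs 5′ to 3′ on the gene's strand.
AARS (chr16:70289640-70289739, minus strand): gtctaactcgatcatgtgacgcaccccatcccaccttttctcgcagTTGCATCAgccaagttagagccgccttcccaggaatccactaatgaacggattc
CARS (chr11:3057407-3057436, minus strand): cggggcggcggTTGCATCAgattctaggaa
GARS (chr7:30594834-30594863, plus strand): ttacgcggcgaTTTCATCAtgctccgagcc
IARS (chr9:92293698-92293756, minus strand): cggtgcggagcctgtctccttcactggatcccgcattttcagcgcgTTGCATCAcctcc
MARS (chr12:57488053-57488082, plus strand): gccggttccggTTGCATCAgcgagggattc
NARS (chr18:57621804-57621833, minus strand): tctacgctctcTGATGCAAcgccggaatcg
TARS (chr5:33440956-33440985, plus strand): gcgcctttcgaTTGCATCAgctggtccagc
YARS2 (chr12:32756041-32756140, minus strand): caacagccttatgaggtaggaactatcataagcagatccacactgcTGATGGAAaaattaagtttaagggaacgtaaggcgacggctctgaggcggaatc

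In CARS, GARS, IARS, MARS, NARS and TARS the element lay within 33 bases of an annotated start, and in AARS and YARS2 it began 187 and 197 bases upstream. The 7 cytosolic genes with the element lay on both sides of 0, with AARS at -0.55, TARS at -0.45, MARS at -0.44, IARS at -0.17, CARS at -0.07, GARS at 0.09 and NARS at 0.19. Their median was -0.17, and that of the 9 cytosolic genes whose windows lacked it was -0.24. A match is a description of the sequence, and no match says only that these letters are not in the window.

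Other genes of the ATF4 axis had a lower median than the synthetases. Of 25 compared genes 20 were lower in shATMIN cells (80.0%, against 70.7% of all genes), with a median of -0.38. At least 1.5-fold lower were 7 of them (28.0%, against 12.2% of all genes). Among these 7, SHMT2 stood at -0.62 but its second probe gave 0.46. PSAT1 stood at -0.69 with -0.43 on its second probe, and the second TRIB3 probe gave -0.82. SLC1A5, the glutamine transporter, read 1368 in shATMIN cells and 2552 in neo cells, a difference of -0.90. SLC7A1, the arginine and lysine transporter, read 924 in shATMIN cells and 1688 in neo cells, a difference of -0.87. TRIB3, a pseudokinase that restrains ATF4, read 1390 in shATMIN cells and 2795 in neo cells, a difference of -1.01, and SLC7A11, the cystine transporter, stood at -0.81. The 4 genes lowest on this list were thus 3 amino acid transporters and TRIB3. The 5 higher genes were NUPR1 (0.60), XPOT, the amino acid transporter SLC38A2 (0.19) and the transcription factors ATF5 (0.18) and ATF3 (0.09). NUPR1 was the one gene higher by at least 1.5-fold, against 1.9% of all genes. It was dim, at 93.0 in shATMIN cells and 61.0 in neo cells, near the level required for comparison. XPOT was higher on its brighter probe only, with -0.56 on the other. SLC38A2 read 33456 in shATMIN cells and 29277 in neo cells.

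The asparagine synthetase gene ASNS, which makes the amino acid that NARS attaches, read 13700 in shATMIN cells and 16626 in neo cells, a difference of -0.28, and ATF4 itself read 38489 in shATMIN cells and 38728 in neo cells, with -0.57 on a dimmer probe. ATF4 is controlled largely by translation, so its transcript is an incomplete guide to its activity. All 4 kinases that phosphorylate eIF2alpha upstream of ATF4 were lower as deposited, where 70.7% of all compared genes were. All 4 were also lower under each of the 4 scalings, against 39.7% of all genes. Their median was -0.52 as deposited and -0.25 with the trend on level removed. EIF2AK4, the sensor of uncharged tRNA known as GCN2, read 641 in shATMIN cells and 954 in neo cells, a difference of -0.57. With the trend on level removed, 17 of 25 ATF4 axis genes were lower (68.0%, against 48.5% of all genes) and the median was -0.15, against 0.01 for cytosolic synthetases and 0.01 for all genes.

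**Figure D5:**
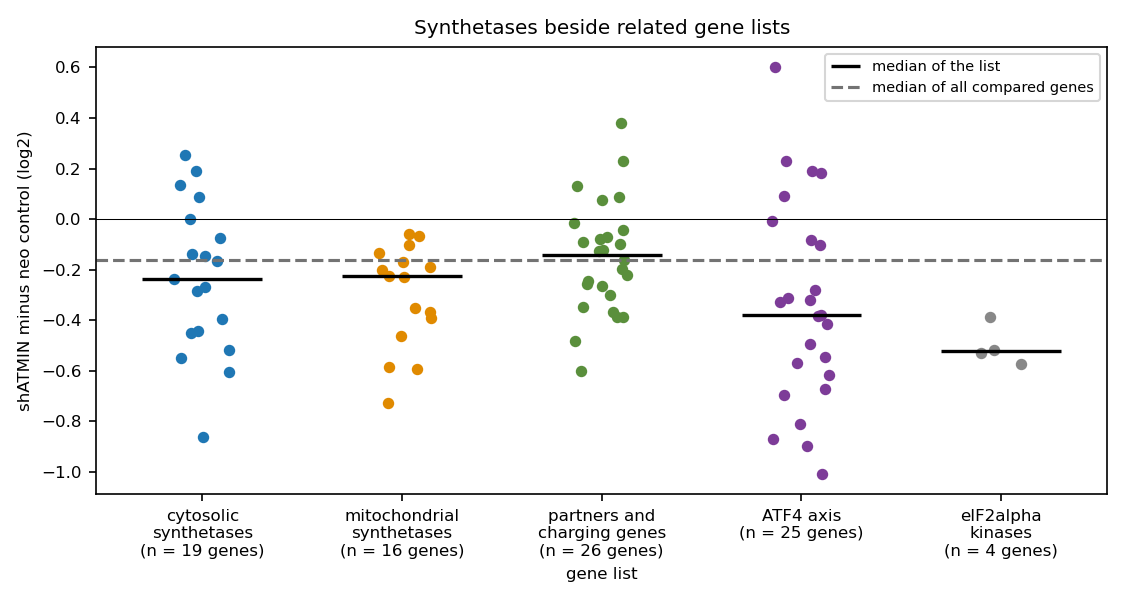
Difference (shATMIN minus neo, log2) of each compared gene in 5 lists, with a bar at the median of the list and a dashed line at the median of all compared genes. The synthetase medians (-0.24 cytosolic and -0.23 mitochondrial) lie near the dashed line at -0.16, and the ATF4 axis median lies at -0.38.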

How the data were processed

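The authors deposited 1 linear intensity per probe and sample, which some values below 0 show to be background-subtracted. No source used here names the scanner, how the 2 arrays of a sample were combined, or a normalization step. Of 31741 probes, the platform annotation named 1 gene for 24740, and the older symbols of 1953 of these probes were updated through the RefSeq gene table. The array's build is not stated, so no probe positions are given; promoter positions are those of the RefSeq windows.

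Negative values became 0, and differences (shATMIN minus neo) were taken on log2(intensity + 1), which understates those of dim genes. The probe with the highest mean stood for its gene, and genes were compared from the 40th percentile of probe means upward. Each group has 1 sample, so no tests were run and counts were made at 2-fold and 1.5-fold. The trend on level was a loess fit (span 0.3) over all compared genes. Pairs of readings were recovered under an intensity of 1000, because deposited values are means of whole numbers with unequal scale factors. From 300 to 1000, 98.3% of values were resolved, against 14.4% in shATMIN cells and 11.9% in neo cells with a wrong factor, and the SD of one reading was 0.10 on the log2 scale.

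Every synthetase gene was named, and up to 4 compared genes of greatest difference from other lists. ASNS, ATF3, ATF4, ATF5, NUPR1, PSAT1, SHMT2, SLC38A2, GATC, XPOT, the scaffolds and the cell type markers were named besides, chosen after their values were seen. The members and lists were chosen with earlier results of these data known. Calculations were tested on simulated data. Python 3.11.15, pandas 2.3.3, NumPy 2.4.6, statsmodels 0.14.6 and matplotlib 3.10.9 were used.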

Additional observations from a re-analysis of the deposited data

How the results depend on the processing

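Directions against 0 depended on how the samples were scaled. Over all synthetases the median was 0.0047 after scaling to the 75th percentile (17 lower), -0.031 after quantile normalization (18 lower) and -0.032 with the trend on level removed (18 lower). The cytosolic median was -0.0025, 0.0086 (9 lower) and 0.0103 (9 lower) under the same alternatives, and the mitochondrial median 0.0069 (7 lower), -0.079 (9 lower) and -0.060 (9 lower). Scaling adds one constant to every gene; the cause of the other shifts was not tested. Cytosolic minus mitochondrial was 0.088 after quantile normalization and 0.070 with the trend removed. Relative to the median of all compared genes, the synthetase median stayed below it under every alternative run, and the cytosolic one did so except after quantile normalization, at 0.0064.

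For the same 3 alternatives in the same order, the median was 0.028, 0.062 and 0.071 for cytosolic members outside the complex, 0.094, 0.12 and 0.14 for class II, and 0.017, 0.015 and 0.020 for the ATF4 group. It was 0.091, 0.046 and 0.039 for the charging genes and -0.15, -0.16 and -0.15 for the ATF4 axis. At 1.5-fold, 4 members passed, 2 cytosolic and 2 mitochondrial; all were lower in shATMIN cells. Over all genes 166 were at least 2-fold lower and 57 higher as deposited, against 36 and 122 after scaling to the 75th percentile, 50 and 96 after quantile normalization and 44 and 96 with the trend removed. No member passed 2-fold under any alternative. The dim filters, the mean of probes, the pseudocount of 16 and leaving out probes over 60000 changed no sign of the synthetase medians. No paired analysis was possible because each group has 1 sample. Construct and clone cannot be told apart from the hairpin, and LARS2, EARS2 and SARS2 are the dimmest members.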
